A study of Mus musculus with 6 samples.

Results

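Lysosomes are acidic organelles in which proteins, lipids and glycans are broken down, and cathepsins are their main proteases. The cathepsins are made as inactive precursors that mature in the acidic lumen, LAMP proteins line the limiting membrane, and a proton pump, the V-ATPase, acidifies the interior. Most of these genes are used by many cell types of the brain, and several are particularly abundant in microglia, the resident macrophages. The 10 genes described here, chosen by symbol and matched to Ensembl identifiers, were found among 52550 genes of the count table. They are the cathepsins Ctsb, Ctsd, Ctsl, Ctss and Ctsz, the membrane glycoproteins Lamp1 and Lamp2, and the luminal proteins Grn (progranulin), Hexa and Lyz2. A further 121 lysosomal genes, listed by function, were set beside them.

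RNA was sequenced from mouse hippocampus in 3 control libraries and 3 libraries labelled as knockdown of hnRNP DL, an RNA-binding protein. The study's methods describe male C57BL/6 J mice injected at 8 weeks of age into both CA1 areas with an adeno-associated virus carrying shRNAs, under H1 promoters, against the long isoform (L-DL), or with a control shRNA virus. The methods give the control virus at a higher titre. A CamkIIα promoter drove the zsGreen reporter of the injected neurons, not the shRNAs. The labels call the controls wild type and describe the other group also as hnRNP DL-/-, and they do not say whether each library came from a separate animal, so p-values measure the spread between these libraries. That spread may be technical.

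Counts per library ranged from 16052529 to 17913064. The gene Hnrnpdl, counted over all its isoforms, gave 176, 184 and 171 CPM, the counts of a gene scaled to library size as fitted by TMM (trimmed mean of M-values), in the controls and 217, 150.3 and 173 CPM in the libraries labelled L-DL KD (KD-labelled libraries below). The log2 fold change was 0.03 ± 0.12 (SE, adjusted p = 0.898), so the gene count does not show the knockdown, and it cannot separate the long isoform. The paper assessed the knockdown by immunoblots of L-DL protein from hippocampus, which RNA counts do not measure. Of 17621 genes tested, 5379 (30.5%) passed an adjusted p of 0.05 in the quasi-likelihood test of edgeR, adjusted by Benjamini-Hochberg, 15.6% of all tested genes being higher and 15% lower in the KD-labelled libraries. These shares are the background for every count below.

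8 of the 10 genes rose in the KD-labelled libraries and none fell, against the 15.6% of all tested genes that rose and the 15% that fell. The 10 genes and the lists below were chosen with earlier results of these data known, so such contrasts are descriptive only. In the same 8 genes all 3 KD-labelled libraries lay above all 3 controls, which 23.8% of tested genes did, while 23.4% lay below. The median log2 fold change was 0.66 for the 10 genes and 0.01 for all tested genes. Lamp1 and Lyz2 did not pass the test. Replicate 1 was the lowest of the KD-labelled libraries in 9 of the 10 genes, against 37.7% of all tested genes and 9 of 12 microglial markers, and control replicate 1 was the highest control in 8, against 34.5% of all tested genes and 4 of 12 markers. Together the 10 genes took 0.428% ± 0.0531 of counts in controls and 0.654% ± 0.102 in the KD-labelled libraries (SD, n = 3 each).

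**Figure D1:**
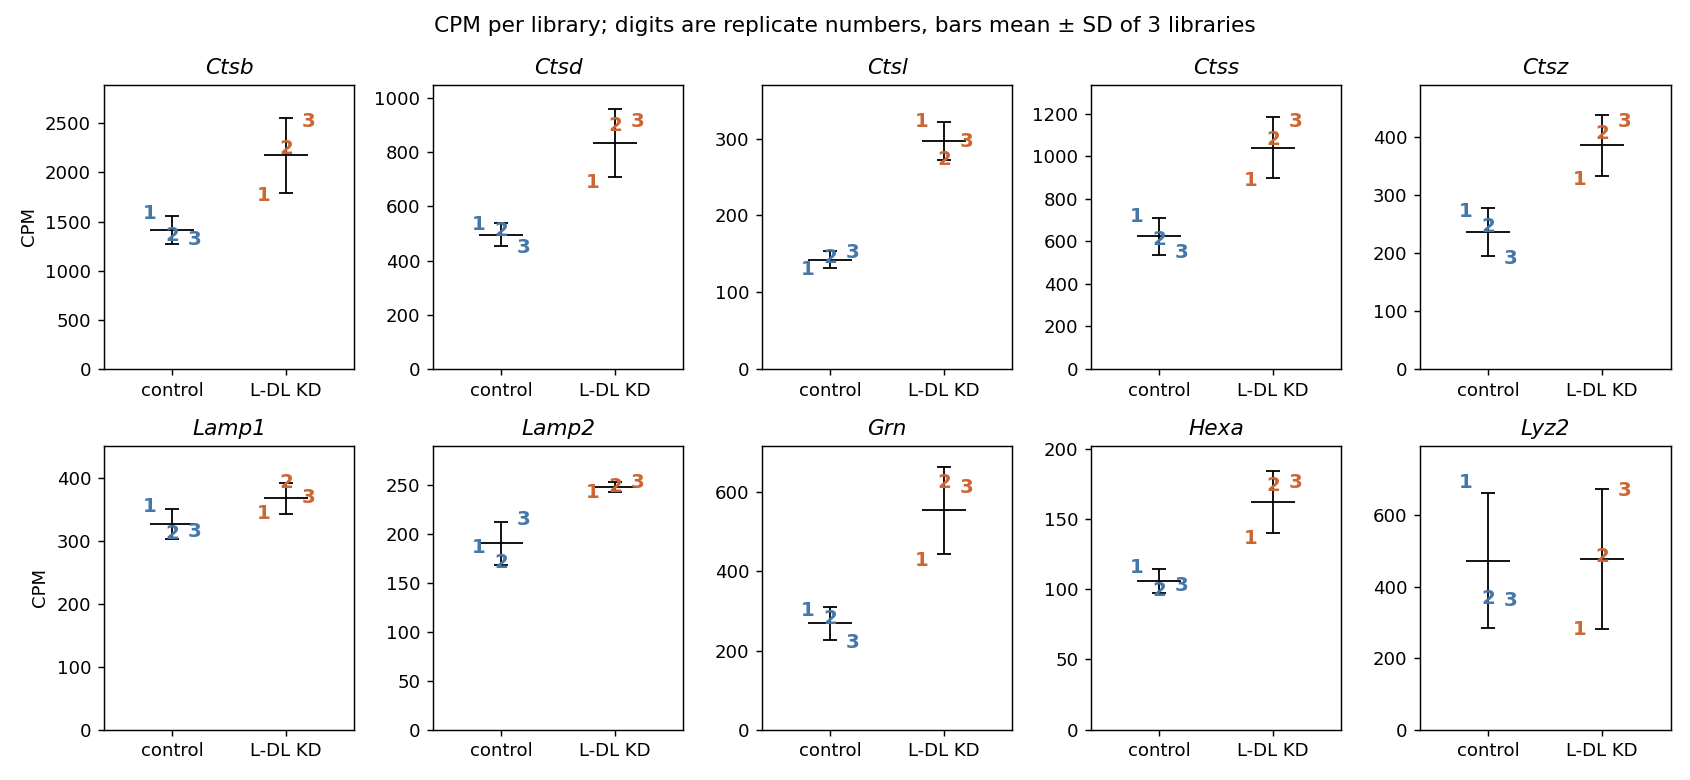
CPM (y axes, linear from 0) of the 10 genes in the control (blue) and L-DL KD (orange) libraries, where digits are replicate numbers and black bars are the mean ± SD of 3 libraries. The groups overlap only for Lamp1 and Lyz2, and replicate 1 is the lowest L-DL KD library in 9 of the 10 genes, as it is in 37.7% of all tested genes and 9 of 12 microglial markers.

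Among the proteases, Ctsl (chr13:64359337-64370890, minus strand, GRCm38), a cysteine endopeptidase, changed most. It was at 129.7, 145.6 and 151.5 CPM in the controls and at 322, 274 and 296 CPM in the KD-labelled libraries. The groups did not overlap, and the mean rose 2.09-fold, a log2 fold change of 1.06 ± 0.09 (SE, adjusted p = 0.000219).

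Ctsd (chr7:142375911-142388038, minus strand), the main aspartic protease of the lysosome, was at 532, 509.6 and 447 CPM in controls and 689, 899 and 912 CPM in the KD-labelled libraries. Its log2 fold change was 0.75 ± 0.12 (adjusted p = 0.0031). Ctss (chr3:95526786-95556403, plus strand), a cysteine protease that is prominent in microglia and other antigen-presenting cells, was at 716, 608 and 546 CPM against 886, 1077 and 1161 CPM. It rose by a log2 fold change of 0.74 ± 0.13 (adjusted p = 0.00434). In both genes the lowest KD-labelled library was replicate 1, and it still lay above the highest control.

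Ctsz (chr2:174427493-174439039, minus strand), a carboxypeptidase, was at 271, 245 and 190.0 CPM in the controls and 327, 405 and 426 CPM in the KD-labelled libraries. The log2 fold change was 0.71 ± 0.15 (adjusted p = 0.00825). Ctsb (chr14:63122462-63145923, plus strand), a cysteine protease with both endopeptidase and carboxypeptidase activity and the most abundant of the 10 genes by CPM, was at 1580.4, 1353 and 1319 CPM against 1761, 2247 and 2514 CPM. Its log2 fold change was 0.62 ± 0.14 (adjusted p = 0.0114). The Ctsb call was lost, with an adjusted p of 0.0524 without control replicate 2 and of 0.0535 without control replicate 3.

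The membrane glycoproteins had smaller fold changes than the 5 cathepsins. Lamp2 (chrX:38401357-38456454, minus strand), which also takes part in chaperone-mediated autophagy, was at 186, 171 and 214 CPM in the controls and 242, 249 and 253 CPM in the KD-labelled libraries. The groups were apart, and the log2 fold change was 0.38 ± 0.09 (adjusted p = 0.0143). Its adjusted p was 0.0611 without control replicate 1 and 0.0544 without control replicate 2. Lamp1 (chr8:13159161-13175338, plus strand) was at 355, 313 and 315 CPM against 343, 393 and 369 CPM, so that the groups overlapped and the log2 fold change of 0.17 ± 0.08 missed the threshold (adjusted p = 0.153).

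Of the luminal proteins, Grn (chr11:102430315-102437048, plus strand) encodes progranulin, a secreted and lysosomal glycoprotein that is processed into granulins. It was at 302, 282 and 221 CPM in the controls and 428, 624 and 611 CPM in the KD-labelled libraries. Its log2 fold change was 1.05 ± 0.17 (adjusted p = 0.00282), and replicate 1 stood below the other KD-labelled libraries. Hexa (chr9:59539540-59565109, plus strand), the alpha subunit of β-hexosaminidase, which degrades gangliosides, was at 116, 99.5 and 103 CPM against 137, 174 and 176 CPM. It rose by a log2 fold change of 0.61 ± 0.11 (adjusted p = 0.00501).

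Lyz2 (chr10:117277331-117282321, minus strand) encodes lysozyme, a bacteriolytic enzyme of macrophages, monocytes and neutrophils. It was at 691, 366 and 362 CPM in the controls and 279, 485 and 670.1 CPM in the KD-labelled libraries. Single libraries of both groups were high, the groups overlapped, and the log2 fold change was 0.02 ± 0.34 (adjusted p = 0.978). It took a negative sign in 3 of the 6 fits that left out one library, the lowest being -0.30. The coefficient of variation of Lyz2 was 39.9% in controls and 40.9% in the KD-labelled libraries, against at most 19.8% in any of the other 9 genes in either group. Lyz1, its near-identical neighbour, had 4 to 10 counts per library and was not tested. How reads that fit both genes were counted is not given in the sources used here, so the split between Lyz1 and Lyz2 is uncertain.

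Per kilobase of annotated exon, Ctss was the highest of the 10 genes in controls, at 459 ± 63.2 CPM per kb (SD, n = 3), followed by Lyz2 at 359 ± 143, Ctsb at 234 ± 23.5 and Ctsd at 211 ± 18.6 CPM per kb. The ranges of Ctss and Lyz2 overlapped, as did those of Ctsb and Ctsd. Within each control library, Ctss nevertheless stood above Lyz2 and Ctsb above Ctsd. The ranges of Ctsz at 163 ± 28.8 and Lamp1 at 123 ± 8.94 CPM per kb also overlapped, with Ctsz higher within each control library. Below them stood Grn at 77.3, Hexa at 53.1, Ctsl at 21.9 and Lamp2 at 19.9 CPM per kb. The ranges of the last 2 overlapped, with Ctsl higher within each control library. In the KD-labelled libraries the order of the means was the same except for Grn and Lamp1. Grn, at 159.7 ± 31.6 CPM per kb, came before Lamp1, at 138 ± 9.28, with overlapping ranges. Lyz2, Ctsb and Ctsd stood close there, at 363, 359 and 354 CPM per kb. Their ranges overlapped, and that of Ctsz overlapped that of Ctsd. The lengths are unions of all annotated exons, which lowers the values of genes with long alternative transcripts, such as Ctsl and Lamp2.

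The 10 genes were read from a whole tissue, and markers of cell types moved between the same libraries. Summed over 12 microglial markers, the level was 684, 749 and 623 CPM in the controls and 1528, 1680.1 and 1823 CPM in the KD-labelled libraries, a 2.45-fold higher mean. All 12 markers rose, among them Csf1r (log2 fold change 1.34, adjusted p = 0.000114) and Cx3cr1 (1.53, adjusted p = 8.9e-05), which encode receptors of microglia. Their log2 fold changes ranged from 0.57 for P2ry12 and 0.60 for Tmem119, a purinergic receptor and a membrane protein of microglia, to 2.57 for Fcrls. Markers of neurons summed to 4342 to 4693 CPM in controls and 2544 to 3232 CPM in the KD-labelled libraries, with 7 of 8 lower and Nefl higher. In bulk tissue, fewer cells of a type and less RNA per cell cannot be told apart.

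Among the other lists, the sums of astrocyte markers also separated the groups. They were 7815 to 7966 CPM in controls and, all lower, 6087 to 7183 CPM in the KD-labelled libraries, with 3 of 7 markers past the test as lower and Aqp4 as higher. Border macrophage and monocyte markers summed to 54.7 to 60.5 CPM in controls and to 60.4, 99.6 and 132 CPM in the KD-labelled libraries, with 2 of 7 tested markers higher. Neutrophil markers summed to 1.24 to 3.57 CPM in both groups together, with Ly6g, Mpo, Camp and Retnlg each near 0, and the highest sums were in control replicate 1 (3.57 CPM) and L-DL KD replicate 3 (3.46 CPM), the libraries that were also highest for Lyz2 in their groups. The border macrophage and monocyte sums were highest in the same libraries, at 60.5 and 132 CPM. Choroid plexus markers ranged from 29.4 to 5138 CPM, with high libraries in both groups. The lists of hippocampal neurons, with 3 of 8 lower and Zbtb20 higher, oligodendrocytes, with Mag higher, and endothelium, with 2 of 5 higher, overlapped in sum. The part of these cell types in the levels of the 10 genes was not tested.

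**Figure D2:**
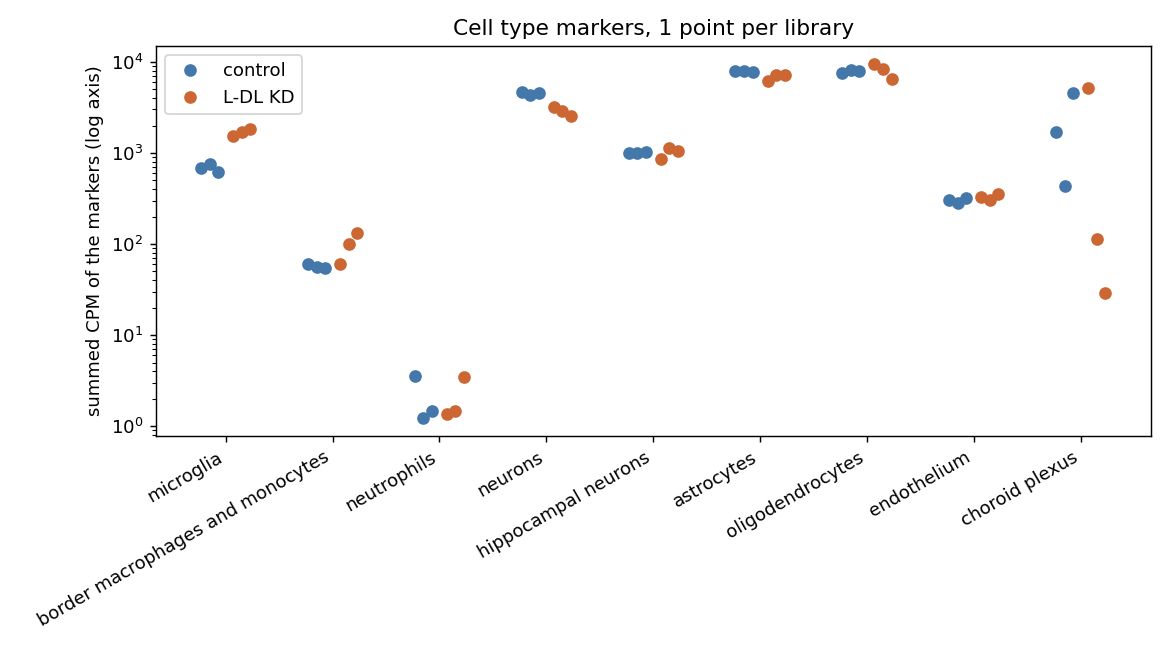
Summed CPM (y axis, log scale) of 9 lists of cell type markers (x axis), 1 point per library, controls in blue and L-DL KD in orange. The microglial sums do not overlap between groups (623 to 749 against 1528 to 1823 CPM), and the choroid plexus sums spread from 29.4 to 5138 CPM.

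Relative to the sum of all 12 microglial markers, most of the 10 genes were lower in the KD-labelled libraries. The log2 ratio of a gene's CPM to the summed CPM of the 12 markers was lower in all 3 KD-labelled libraries than in any control for 8 of the 10 genes. That sum itself rose 2.45-fold, while the median log2 fold change of all tested genes was 0.01, so an unchanged gene also comes out lower. The share of all tested genes with a lower ratio was not counted. For Ctsb the ratio was 1.21, 0.85 and 1.08 in the controls and 0.20, 0.42 and 0.46 in the KD-labelled libraries, a difference of -0.69. The differences were -0.55 for Ctsd, -0.55 for Ctss, -0.57 for Ctsz, -0.68 for Hexa, -0.91 for Lamp2, -1.12 for Lamp1 and -1.30 for Lyz2. Each of these 8 had a two-sided exact permutation p of 0.1, the smallest that 3 libraries against 3 allow, and an adjusted p of 0.125 over the 10 genes, so that none could pass 0.05. The direction depended on the markers: against P2ry12 alone, an alternative added after seeing the data, the ratio was lower in 1 gene (Lamp1), higher in 2 (Ctsl and Grn) and overlapped between groups in 7. Against Tmem119 alone it was lower in 0 genes, higher in 1 (Grn) and overlapped in 9.

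Ctsl and Grn, the genes with the largest rises, were those whose ratios overlapped between groups. The Ctsl ratio was -2.40, -2.36 and -2.04 in the controls and -2.25, -2.62 and -2.62 in the KD-labelled libraries (difference -0.23, exact permutation p = 0.3). The Grn ratio was -1.18, -1.41 and -1.496 against -1.84, -1.43 and -1.58 (difference -0.25, exact permutation p = 0.2).

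**Figure D3:**
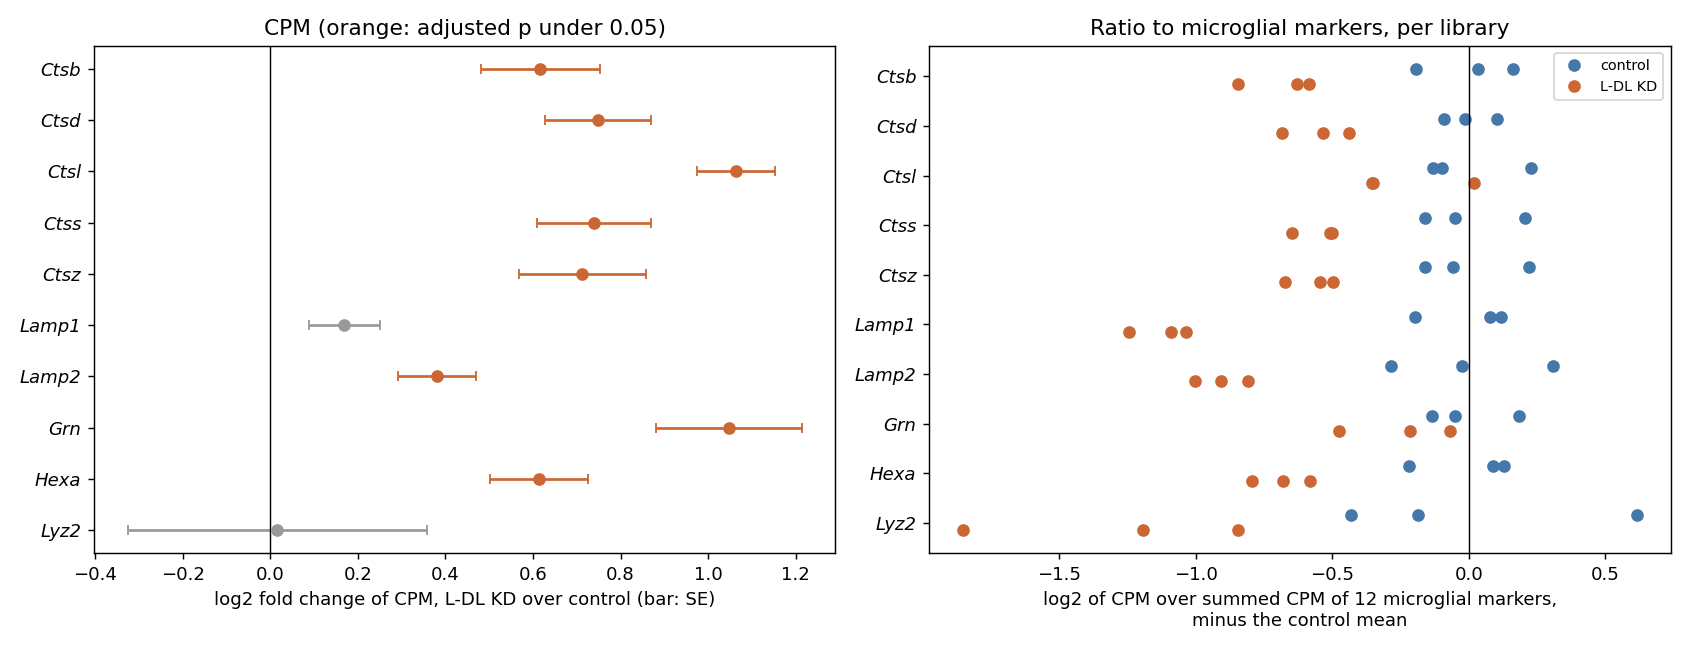
Left, log2 fold change of L-DL KD over control for each gene with its standard error (x axis, edgeR), orange where the adjusted p is under 0.05. Right, log2 ratio of each gene to the summed microglial markers per library, minus the control mean (x axis), controls in blue and L-DL KD in orange. The orange points lie left of all blue points in 8 genes with this sum of 12 markers and overlap them for Ctsl and Grn. The sum itself rose 2.45-fold.

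The other lysosomal genes moved in both directions. Of 121 genes, 118 were tested, 41 rose and 23 fell, with a median log2 fold change of 0.14. The count of genes that fell was 15 without control replicate 1 and 14 without control replicate 3, fits in which the share of all tested genes that fell was also smaller, at 9.66% and 9.95%. The lists of luminal enzymes held more genes that rose than fell, and the list of proton pump subunits more that fell than rose.

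**Figure D4:**
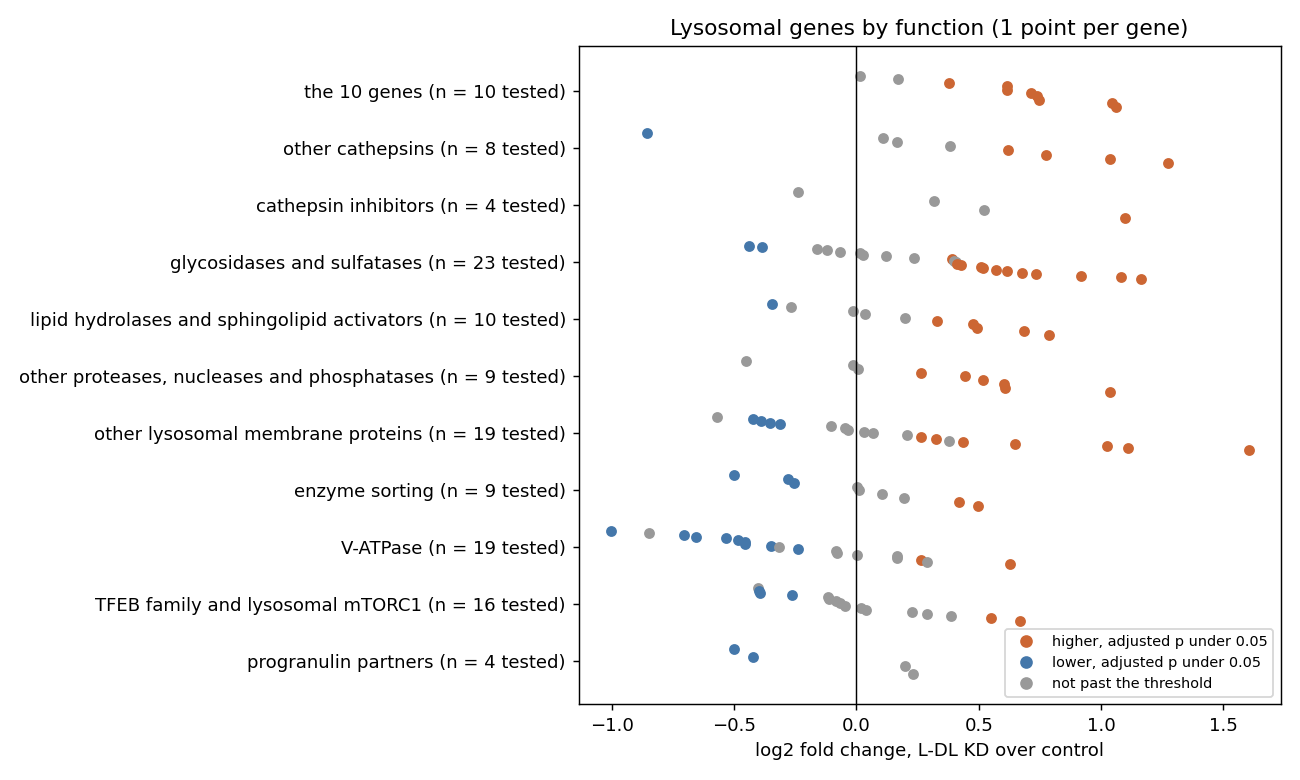
Log2 fold change of L-DL KD over control (x axis) for the 10 genes and for the other lysosomal genes grouped by function (y axis), 1 point per tested gene, orange for higher and blue for lower at an adjusted p under 0.05. The 10 genes are all right of 0, and 9 of 19 V-ATPase genes are blue against 2 orange.

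Of 8 other cathepsins tested, 4 rose and 1 fell. Ctsh, an aminopeptidase, rose from 69.8, 65.7 and 49.7 CPM to 121, 128 and 131 CPM (log2 fold change 1.04 ± 0.12, adjusted p = 0.000796). Ctsa, which protects lysosomal glycosidases, rose by 0.77 on the log2 scale (adjusted p = 0.00111) and Ctsc by 0.62 (adjusted p = 0.0143), the latter with adjusted p values of 0.059 without control replicate 2 and 0.0545 without control replicate 3. Cst3, cystatin C, a secreted inhibitor of cysteine cathepsins, rose beside them from 901, 918 and 884 CPM to 1792, 1994 and 2007 CPM (log2 fold change 1.1 ± 0.07, adjusted p = 0.000116), the only one of 4 inhibitors to pass.

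Of 23 glycosidases and sulfatases, 12 rose and 2 fell. Gusb, a β-glucuronidase, and Galns, a sulfatase, rose by 0.92 and 1.08 on the log2 scale (adjusted p = 0.000786 and 0.00098). Ids, the iduronate sulfatase, fell by 0.44 on the log2 scale (adjusted p = 0.0194). It was the most abundant of the list by the mean of all 6 libraries, though not in the KD-labelled libraries alone. Its adjusted p reached 0.0619 without control replicate 1, 0.077 without control replicate 3 and 0.0583 without L-DL KD replicate 2.

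Of 10 lipid hydrolases and sphingolipid activators, 5 rose and 1 fell. Pla2g15, a phospholipase, rose by 0.79 on the log2 scale (adjusted p = 0.00142), Asah1, the acid ceramidase, by 0.49 (adjusted p = 0.00655) and Lipa, the acid lipase, by 0.69 (adjusted p = 0.00678). Psap, the saposin precursor and the most abundant gene of the list, stood at 2582, 2229 and 2294 CPM in controls and 2481, 2793 and 2881 CPM in the KD-labelled libraries (log2 fold change 0.20, adjusted p = 0.137, and 0.0196 without L-DL KD replicate 1). Of 9 other proteases, nucleases and phosphatases, 6 rose and none fell. Lgmn, the asparaginyl endopeptidase that processes cathepsins, rose by 1.04 on the log2 scale (adjusted p = 0.000532), from 254, 247 and 199 CPM to 444, 465 and 528 CPM. Rnaset2a, a ribonuclease, and Dnase2a, an acid deoxyribonuclease, rose by 0.60 and 0.61 (adjusted p = 0.0015 and 0.00774).

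Of 19 other lysosomal membrane proteins, 7 rose and 4 fell. Slc11a1, a metal transporter of macrophage phagosomes, rose from 23.3, 17.6 and 18.3 CPM to 49.2, 62.4 and 68.4 CPM (log2 fold change 1.604 ± 0.15, adjusted p = 0.000349). Cd63, a tetraspanin, rose by 0.65 on the log2 scale (adjusted p = 0.000799) and Laptm5, a transmembrane protein of haematopoietic cells, by 1.11 (adjusted p = 0.000918). Laptm4a, the most abundant of the list by the mean of all 6 libraries, rose by 0.32 (adjusted p = 0.00788). In the KD-labelled libraries alone, the mean of Laptm5 was higher (374 against 349 CPM). Of 9 genes for the sorting of enzymes to the lysosome, 2 rose and 3 fell. Sort1, sortilin, a receptor that takes up progranulin, fell from 644, 601 and 655 CPM to 469, 488 and 386 CPM (log2 fold change -0.50 ± 0.10, adjusted p = 0.00674). Nagpa, which uncovers the mannose 6-phosphate tag, rose by 0.50 on the log2 scale (adjusted p = 0.0146, and 0.0644 without control replicate 1 and 0.05002 without L-DL KD replicate 2), and Gga3, a sorting adaptor, had a log2 fold change of -0.28 (adjusted p = 0.0172, and 0.0737 and 0.0623 without control replicates 2 and 3). Of the 4 tested partners of progranulin, Sort1 and Tmem106b, a lysosomal membrane protein, fell (log2 fold change of Tmem106b -0.42, adjusted p = 0.00659) while Grn itself rose.

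Of 19 V-ATPase genes, 9 fell and 2 rose, against the 15% and 15.6% of all tested genes. Atp6v0e2, a membrane-sector subunit, fell from 297, 268 and 262 CPM to 156, 132 and 124 CPM (log2 fold change -1.01 ± 0.10, adjusted p = 0.000387). Atp6v1d and Atp6v1g2, which encode subunits of the cytosolic sector, had log2 fold changes of -0.66 and -0.71 (adjusted p = 0.00066 and 0.000856). Atp6v1a, which encodes the catalytic subunit, was the most abundant by the mean of all 6 libraries. In controls alone the mean of Atp6v1b2 was slightly higher (534 against 530 CPM). The log2 fold change of Atp6v1a was 0.17 (adjusted p = 0.226, and 0.0354 without L-DL KD replicate 3). The sums of 19 pump genes were 3923 to 4099 CPM in controls and 3113 to 3514 CPM in the KD-labelled libraries, so the list moved opposite to the 10 genes, in the direction of the sums of neuronal and astrocyte markers. The part of these markers in this was not tested.

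Of 16 genes for the TFEB family of transcription factors and for lysosomal mTORC1, 2 rose and 3 fell. These counts are near the 15.6% and 15% of all tested genes, and the summed CPM of the list overlapped between groups. Mitf, a factor of that family, rose from 18.3, 19.4 and 20.8 CPM to 28.3, 29.7 and 35.0 CPM (log2 fold change 0.67 ± 0.12, adjusted p = 0.00414), and Tfe3, another, by 0.55 on the log2 scale (adjusted p = 0.00467). Rragb, a GTPase that recruits mTORC1 to the lysosome, and Mtor, the kinase of that complex, had log2 fold changes of -0.40 and -0.40 (adjusted p = 0.0042 and 0.0108).

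Factors of the TFEB family bind a palindromic E-box core, CACGTG, in lysosomal genes, and ETS factors such as PU.1 of microglia bind sequences around GGAAGT. The promoters of the 10 genes are shown here to compare these letters with the levels above. A 250-base window before the RefSeq start (GRCm38.p6) was found for 9 of the 10 genes, all but Ctsb. Searched on both strands, CACGTG occurred in 3 of the 9 windows (Ctsd, Ctsl and Lamp1), against 6.05% of 27025 promoters. GGAAGT occurred in 1 of the 9 (Lyz2), against 20% of promoters. The motifs do not overlap each other. Lamp1 held 4 matches, Ctsd 2 and Ctsl 1. Of the 3 genes with a match, Ctsl and Ctsd rose and Lamp1 did not pass the test, and of the 6 without, Ctss, Ctsz, Grn, Hexa and Lamp2 rose and Lyz2 did not pass. In the sequences below, all 5′ to 3′ on the gene's strand, capitals mark CACGTG. They show the Lamp1 window (chr8:13158911-13159160, plus strand), the first 39 bases of the Ctsd window, which lie before the annotated gene (chr7:142388039-142388077, minus strand), and the Ctss window with no match (chr3:95526536-95526785, plus strand).
Lamp1: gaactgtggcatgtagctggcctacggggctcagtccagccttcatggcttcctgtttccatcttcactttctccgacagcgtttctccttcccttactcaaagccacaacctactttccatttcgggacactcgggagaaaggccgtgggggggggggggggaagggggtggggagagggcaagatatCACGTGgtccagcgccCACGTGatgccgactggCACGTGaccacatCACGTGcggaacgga
Ctsd: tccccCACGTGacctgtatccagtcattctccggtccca
Ctss: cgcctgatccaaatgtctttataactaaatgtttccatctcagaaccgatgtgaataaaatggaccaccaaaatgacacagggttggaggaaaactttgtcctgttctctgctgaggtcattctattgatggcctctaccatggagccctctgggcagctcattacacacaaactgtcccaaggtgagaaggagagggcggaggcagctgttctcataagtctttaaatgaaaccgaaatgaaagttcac
The second match of Ctsd lay 98 to 93 bases before the RefSeq start, inside the longer annotated transcript, and the Ctsl window lay wholly inside the annotated gene.

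Splicing of the 10 genes was read from junction counts. Of 40961 listed events, 18 belonged to 8 of the 10 genes, and none to Ctsz or Lyz2. Of these, 8 had enough counts of both forms for the test, and none passed, against 0.255% of 18829 tested events. In edgeR 1 of the 8 had an unadjusted p under 0.05, as did 1 in limma, where none passed either. The share of all tested events under that unadjusted p was not counted. The other 10 events were spliced almost wholly one way, with at most 3 counts of the skipping form in any library.

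Apart from a pair of Lamp2 exons, the largest share of a minor form among the tested events was at exon 2 of Ctss, where a pair of acceptor sites 3 bases apart (chr3:95529434-95529436) adds or leaves out CAG in the coding sequence. The reading frame is kept. The junction, with 24 bases on either side, reads as follows in the annotated transcripts, capitals marking the added bases.
Ctss-201: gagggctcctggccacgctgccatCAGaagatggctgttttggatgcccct
Ctss-202: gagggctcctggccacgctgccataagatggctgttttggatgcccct
The inclusion level of the longer form was 0.0869, 0.0907 and 0.0754 in the controls and 0.0750, 0.0677 and 0.0792 in the KD-labelled libraries, in junction totals of 1573 to 3488 counts. The groups overlapped (adjusted p = 0.776). Inclusion of the whole exon, counted from either acceptor with the same skipping reads, was 0.993 ± 0.00274 and 0.996 ± 0.00152 in controls and 0.990 ± 0.000794 and 0.995 ± 0.000329 in the KD-labelled libraries (SD, n = 3), with adjusted p values of 0.781 and 0.787.

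Retention of the intron between exons 8 and 9 of Grn (chr11:102434827-102435058) was at 0.0172, 0.0218 and 0.0217 in the controls and 0.0168, 0.0141 and 0.0182 in the KD-labelled libraries (adjusted p = 0.744), while the gene's mean CPM rose 2.07-fold. For Lamp2, exons 6 and 7 were paired as mutually exclusive, although each was also counted as included in at least 0.994 of its own junction reads. The inclusion level of the pair was 0.640 ± 0.0184 in controls and 0.660 ± 0.0304 in the KD-labelled libraries (adjusted p = 0.9). Exons 3 and 10 of Hexa were included at 0.996 ± 0.00472 and 0.977 ± 0.00853 in controls and 0.996 ± 0.00244 and 0.982 ± 0.011 in the KD-labelled libraries (adjusted p = 0.991 and 0.905).

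The remaining tested event was an 18-base extension of exon 6 of Ctsd (chr7:142377333-142377350), a coding segment. The shorter form had 0 counts in each control and 3, 4 and 2 counts in the KD-labelled libraries, of totals between 4498 and 10145. This form met the filter on counts through the KD-labelled libraries alone, so the comparison is against counts of 0. The event was the only tested one of the 10 genes whose groups were apart. Its edgeR p was 0.0185 unadjusted and 0.289 adjusted. The share of all tested events that were apart was not counted. The inclusion level differed by 0.000369 between groups, and so few counts set no firm level.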

How the data were processed

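Paired reads of 150 nt from oligo(dT)-enriched RNA were aligned to GRCm38 (mm10) by the authors. The submitters' processing notes name HISAT2 2.1.0, Bowtie 1.1.2 and HTSeq 0.6.1, and the strand setting is not given in the sources used here. The deposited values used here are raw read counts per gene and rMATS junction counts per event. The rMATS p-values, false discovery rates and inclusion levels are the authors' own comparison and were not used.

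The gene members and lists were chosen with earlier results of these data known. Genes reaching 10 counts in no fewer than 3 libraries were scaled by TMM and tested with the quasi-likelihood test of edgeR 4.0.16 (R 4.3.3) with Benjamini-Hochberg adjustment over all genes. Events with a mean of at least 20 junction counts and 1 count of each form were tested by edgeR with an inclusion-by-group term. Inclusion levels are scaled by form length. The event table does not name its sets: the first was taken as L-DL KD from the sign the methods give, and junction totals moved as the gene counts did in all 267 genes changed at least 2-fold. Marker ratios were compared by exact permutation. Named genes were all 10 members and, in each list, up to 3 called genes with the smallest p and the most abundant gene. Abundance for this rule was the mean CPM over all 6 libraries. One gene named by this rule is not reported here. Both tests were checked on simulated data. Alternatives were DESeq2 1.42.0, limma 3.58.1 (pseudocount 0.5), other scalings and filters, the fit with a replicate block, and the omission of single libraries.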

Additional observations from a re-analysis of the deposited data

How the results depend on the processing

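The counts of called genes among the 10 and among the other lysosomal genes stayed within 1.5 times under library-size scaling, DESeq2, no filter on low counts, a mean of at least 1 CPM and the replicate block. With each library left out in turn, 6 to 8 of the 10 genes rose and 0 fell, and 28 to 44 of the other lysosomal genes rose and 14 to 27 fell. The replicate block gave 8 of the 10 genes higher, 38 other lysosomal genes higher and 19 lower. Same-numbered libraries correlated at 0.05, 0.13 and -0.11 in their deviations, control replicate 3 correlated best with L-DL KD replicate 1, and nothing in the labels pairs them. Leaving out a library turned the sign of Lyz2 (log2 fold change -0.30 to 0.39) and of the inclusion odds of Hexa exon 3 (log2 change -1.28 to 0.54) and exon 10 (-0.082 to 0.66), all of them not called. The number of the 10 genes with a lower microglial ratio was 8 under the mean log2 and library-size scalings and 8 to 9 with a library left out, but 1 against P2ry12 alone and 0 against Tmem119 alone, alternatives chosen after seeing the data. No member event passed under any alternative. With 3 libraries a group, the exact tests cannot pass 0.05, and forms with a few junction counts have no usable precision.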
